A study of Homo sapiens with 9 samples.

Results

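The 10 genes described here build, edit or bind ubiquitin chains on NF-kB signalling complexes, and were followed across cells overexpressing the kinase PLK2, cells overexpressing PLK2(D223N) and cells with an empty vector. They were picked by symbol. TNFAIP3, CYLD, OTULIN, OTUD7B, TNIP1, TNIP2 and TAX1BP1 were taken as deubiquitinases and adaptors that restrain NF-kB. RNF31, RBCK1 and SHARPIN were taken as the subunits of the linear ubiquitin ligase. The choice was made with earlier results of these data known, so counts of called members are not independent of these data. All 10 were among the 17083 genes of the deposited table, and all 10 passed the filter on low counts that left 12924 genes for testing. RNA came from HEK293T cells, an epithelial line derived from human embryonic kidney and transformed with viral oncoproteins, which the labels give as wild type in genotype. Each group had 3 libraries: FLAG-tagged PLK2, FLAG-tagged PLK2(D223N), in which an aspartate is replaced by asparagine, as its name gives it, and the FLAG vector alone. The wild-type genotype and the FLAG label are common to all 3 groups. The labels name the replicates biological and do not say whether they were separate transfections, so the p-values measure the spread between these libraries. The design asks which transcripts follow overexpressed PLK2 and which of them also follow the D223N form.

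NF-kB is held in the cytoplasm until receptors such as the TNF receptor assemble ubiquitin chains that recruit and activate the IκB kinases. The linear ubiquitin assembly complex joins ubiquitins head to tail. Its catalytic subunit HOIP is encoded by RNF31, its partner HOIL-1 by RBCK1, and the third subunit is SHARPIN. Deubiquitinases and ubiquitin-editing enzymes take these chains down again or cover them. A20, encoded by TNFAIP3, is itself a transcriptional target of NF-kB and closes a feedback loop, helped by the adaptors TNIP1, TNIP2 and TAX1BP1. CYLD and OTULIN cleave linear chains.

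Promoter sequences are shown for TNFAIP3 and CYLD, the members whose RNA differed between groups, and for TNIP1, another member with an NF-kB consensus match there. Each line gives, 5′ to 3′, the 250 bases before a RefSeq transcript start (build GRCh38.p14), in lower case with matches to the kappa B consensus, sought on both strands, in capitals.
TNFAIP3 (chr6:137867009-137867258, plus strand): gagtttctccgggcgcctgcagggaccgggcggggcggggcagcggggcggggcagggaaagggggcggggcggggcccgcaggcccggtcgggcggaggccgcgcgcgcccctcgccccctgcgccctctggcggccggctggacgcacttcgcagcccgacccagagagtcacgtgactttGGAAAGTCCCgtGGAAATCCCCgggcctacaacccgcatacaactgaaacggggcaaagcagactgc
CYLD (chr16:50741836-50742085, plus strand): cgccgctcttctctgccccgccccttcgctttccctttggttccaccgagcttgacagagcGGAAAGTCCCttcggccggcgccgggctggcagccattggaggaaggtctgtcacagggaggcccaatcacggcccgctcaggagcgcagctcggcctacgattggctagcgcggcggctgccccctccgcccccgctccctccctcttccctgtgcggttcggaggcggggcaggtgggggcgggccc
TNIP1 (chr5:151081035-151081284, minus strand): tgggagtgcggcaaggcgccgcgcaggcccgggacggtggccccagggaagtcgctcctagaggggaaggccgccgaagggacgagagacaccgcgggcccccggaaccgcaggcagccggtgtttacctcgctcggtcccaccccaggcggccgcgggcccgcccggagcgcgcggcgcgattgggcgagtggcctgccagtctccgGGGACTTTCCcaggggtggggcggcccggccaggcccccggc
In TNFAIP3, whose window was the only RefSeq start listed, both matches read on the opposite strand and begin at positions -67 and -55, counting the base before the start as -1. The CYLD match begins at -189, also on the opposite strand. Of 3 CYLD windows 2 held a match, the other beginning at the first transcribed base. The TNIP1 match begins at -42 on the gene's own strand, in 1 of 2 windows listed. Read on its own strand, the first TNFAIP3 match, the CYLD match at -189 and the TNIP1 match all spell GGGACTTTCC. Over windows of 300 bases that add 50 bases after the start, 3 of the 9 members found in the RefSeq table held a match in at least 1 window, against 7.09% of 27305 genes. SHARPIN was not among the 9. OTULIN, OTUD7B, TNIP2, TAX1BP1, RBCK1 and RNF31 held no match in these windows, which says only that the letters are not there. A match is not evidence of binding. The members were picked as NF-kB regulators with earlier results known, so a share above that of all genes adds no support.

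The 9 libraries held between 14288165 and 16510186 estimated counts each. The transgene followed the labels, with PLK2 at 23744 ± 2384 CPM in PLK2 libraries, 12358 ± 1650 CPM in PLK2(D223N) libraries and 3.42 ± 0.64 CPM in Vector libraries (CPM, counts scaled to effective library size; SD, n = 3 each). Vector replicate 1 stood apart, with a chi-square per gene of 17.7 and 10.8 against Vector replicates 2 and 3, where every other pair within a group lay between 1.63 and 2.81. The epithelial keratins KRT8 and KRT18 averaged 19.6 and 43.2 CPM in PLK2 libraries and 19.6 and 43.7 CPM in Vector libraries. EPCAM, CDH1 and CLDN4 were low, at 1.97, 3.61 and 0.50 CPM in Vector libraries, and KRT19 is not listed. Markers of myeloid, endothelial and fibroblast cells summed to at most 2.604, 0.93 and 11.2 CPM in any library, with none of the listed genes at 0 in all 9. Most of the fibroblast sum was COL1A1, which averaged 9.77, 10.3 and 9.35 CPM in PLK2, PLK2(D223N) and Vector libraries. The 3 listed myeloid markers of 5 summed to 2.05 to 2.37 CPM in PLK2, 0.863 to 1.74 CPM in PLK2(D223N) and 2.10 to 2.604 CPM in Vector libraries. Most of that sum was ITGAM, an integrin subunit, at 1.88 ± 0.06, 1.05 ± 0.51 and 1.95 ± 0.18 CPM in the same groups (SD, n = 3 each), and its part in the results was not tested. In bulk RNA, fewer cells that express a gene and less RNA per cell cannot be told apart.

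Length-scaled levels separated the members into a high, a middle and a low tier. TAX1BP1, an autophagy receptor besides its role with A20, had the highest level, between 103 and 143 TPM (the authors' values, scaled to gene length and library) over the 9 libraries. TNIP1, OTUD7B, CYLD, TNIP2, RBCK1, RNF31, SHARPIN and OTULIN followed in that order with means of 35.5, 30.4, 28.1, 24.7, 23.8, 20.6, 18.2 and 15.9 TPM. Within these 8, each overlapped the next in its range over libraries. TNFAIP3 was the lowest, between 2.68 and 7.62 TPM, and did not overlap OTULIN. It was also the most variable, with a coefficient of variation of 40.3% over the 9 libraries, against 13.6% for CYLD and at most 9.03% for the other 8 members. The mean level of TNFAIP3 lay at the 22.8th percentile of all tested genes and that of TAX1BP1 at the 90.9th.

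**Figure D1:**
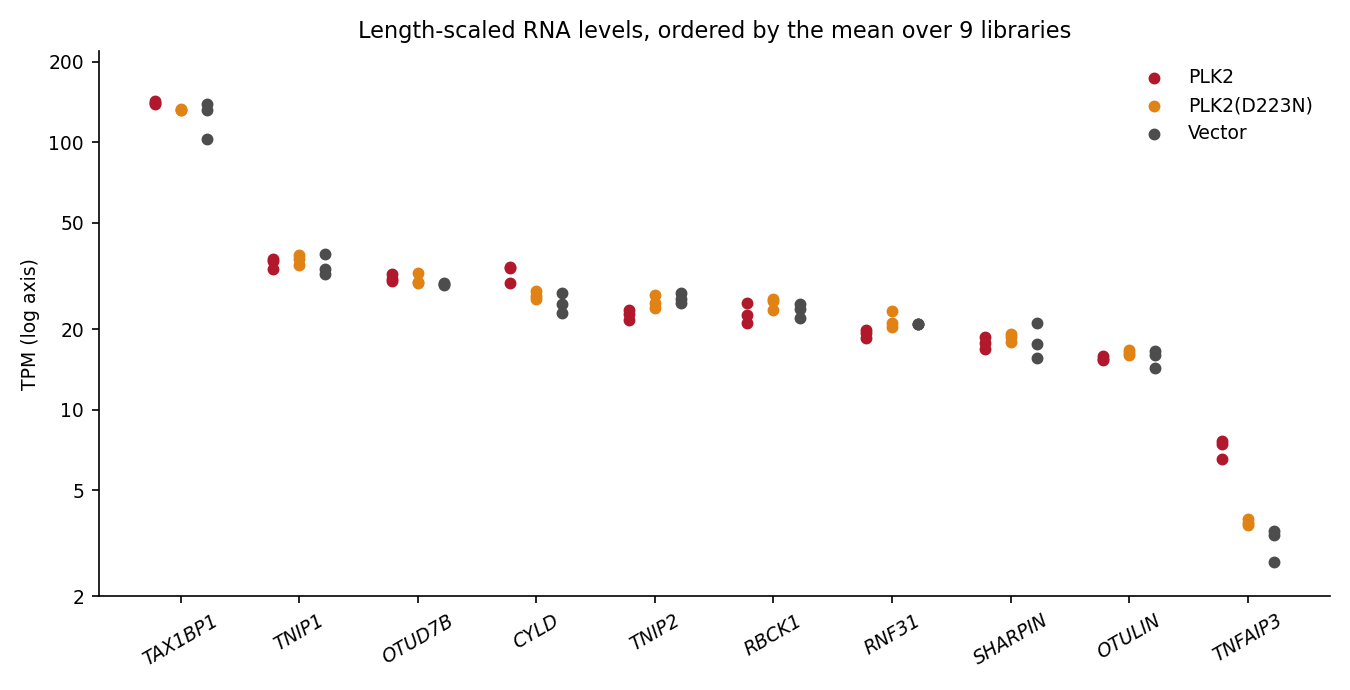
Deposited TPM of each member in each library, on a log axis, ordered by the mean over 9 libraries; points are libraries, coloured by group. TAX1BP1 lies above 100 TPM and TNFAIP3 below 8 TPM in all 9 libraries, and the remaining 8 members overlap their neighbours.

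Of the 4 deubiquitinases 2, TNFAIP3 and CYLD, rose with PLK2 against Vector, and OTULIN and OTUD7B did not pass the test. No adaptor and no ligase subunit passed. With PLK2(D223N) no member passed against Vector, and both TNFAIP3 and CYLD rose with PLK2 against PLK2(D223N). In PLK2 vs Vector 2 of the 10 members were called, both higher (edgeR quasi-likelihood test, adjusted p below 0.05). Of all tested genes 0.511% were called there, 0.48% higher and 0.031% lower. At an unadjusted p below 0.05 stood 3 members higher and 1 lower, beside 16.4% of all tested genes, 9.56% higher and 6.81% lower. None was called in PLK2(D223N) vs Vector by edgeR, by the DESeq2 Wald test (0) or by limma on TPM (0), where edgeR called 0.0232% of all tested genes, each of them higher. None of the 10 reached an unadjusted p below 0.05 there (0), beside 8.53% of all tested genes, 5.22% higher and 3.3% lower. PLK2 vs PLK2(D223N) gave 2 called members, both higher, beside 0.162% of all tested genes, 0.155% higher and 0.00774% lower. The same 2 were those at an unadjusted p below 0.05, where 6.04% of all tested genes stood, 2.98% higher and 3.06% lower. TNFAIP3 and CYLD are the called genes in both comparisons, which share the PLK2 libraries.

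The counts behind those percentages depended on single libraries. Of all tested genes 66 were called in PLK2 vs Vector, but 363 without Vector replicate 1, 1656 without Vector replicate 2, 44 without Vector replicate 3, 44 to 48 without any 1 PLK2(D223N) library and 22, 13 and 20 without PLK2 replicates 1, 2 and 3. The 2 called members remained called with each library left out. Likewise 3 genes were called in PLK2(D223N) vs Vector, 21 without Vector replicate 1, 347 without Vector replicate 2 and 2 without any other library. The 21 genes of PLK2 vs PLK2(D223N) became 317 without Vector replicate 1, 54 without Vector replicate 2, 18 without Vector replicate 3, 14, 9 and 12 without PLK2(D223N) replicates 1, 2 and 3, and 13, 10 and 12 without PLK2 replicates 1, 2 and 3.

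TNFAIP3 (GRCh38 chromosome 6, 137867188 to 137883312 in GENCODE release 29, plus strand) encodes A20. Its level was 18.9, 16.5 and 18.1 CPM in the 3 PLK2 libraries, 8.51, 9.32 and 8.97 CPM in the 3 PLK2(D223N) libraries and 6.89, 8.32 and 8.11 CPM in the 3 Vector libraries. Every PLK2 library lay above all others, and the lowest PLK2(D223N) library lay just above the highest Vector library. The values rest on 258 to 298 estimated counts per PLK2 library, 137 to 151 per PLK2(D223N) library and 116 to 132 per Vector library. Against Vector the log2 fold change with PLK2 was 1.20 (SE 0.09, 95% interval 1.00 to 1.403, adjusted p = 6.49e-06), the fourth smallest p-value of all tested genes. Against PLK2(D223N) it was 1.00 (SE 0.09, 95% interval 0.80 to 1.19, adjusted p = 3.72e-05). The difference between PLK2(D223N) and Vector was 0.20 (95% interval -0.02 to 0.43, adjusted p = 0.574). TNFAIP3 was called in both comparisons with PLK2 under all 18 alternatives run, with log2 fold changes from 0.97 to 1.25 against Vector and from 0.77 to 1.05 against PLK2(D223N). GENCODE release 29 puts 1.88% of its exon bases opposite a noncoding antisense gene, whose reads cannot be told apart from its own where strand was not used.

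CYLD (chromosome 16, 50742050 to 50801935, plus strand) encodes a deubiquitinase lost in familial skin tumours. It was at 89.3, 85.4 and 87.1 CPM in PLK2 libraries, 68.9, 71.9 and 67.9 CPM in PLK2(D223N) libraries and 60.3, 69.4 and 66.6 CPM in Vector libraries. The PLK2 libraries again lay above all others, while PLK2(D223N) and Vector libraries overlapped. The rise over Vector was 33.5% (log2 fold change 0.42, 95% interval 0.29 to 0.54, adjusted p = 0.00500). Over PLK2(D223N) it was 25.5% (log2 fold change 0.33, SE 0.06, adjusted p = 0.0382). PLK2(D223N) and Vector differed by 0.09 on the log2 scale (95% interval -0.04 to 0.22). Its call in PLK2 vs Vector was lost by limma on TPM (adjusted p = 0.124). The call against PLK2(D223N) was lost by limma on TPM (0.459), with a replicate block (0.0624), and without Vector replicate 3 (0.0763), PLK2(D223N) replicate 1, 2 or 3 (0.263, 0.167 and 0.339) or PLK2 replicate 1, 2 or 3 (0.309, 0.198 and 0.226).

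OTULIN (chromosome 5, 14664664 to 14699711, plus strand), which cleaves linear chains alone, ran from 69.1 to 69.5 CPM in PLK2 libraries, from 69.5 to 71.2 CPM in PLK2(D223N) libraries and from 66.8 to 72.9 CPM in Vector libraries. All 3 groups overlapped, and the log2 fold change of PLK2 against Vector was -0.01 (95% interval -0.12 to 0.10, adjusted p = 0.926). OTUD7B (chromosome 1, 149937812 to 150010676, minus strand), also called Cezanne, is a relative of A20 in the OTU family. It ran from 109 to 114 CPM with PLK2, from 103 to 111 CPM with PLK2(D223N) and from 104 to 111 CPM with Vector. Its log2 fold change against Vector was 0.08 (95% interval -0.04 to 0.19, adjusted p = 0.451). For neither gene does a p above the threshold show that PLK2 and Vector are alike, and both intervals lie within 0.193 of 0.

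**Figure D2:**
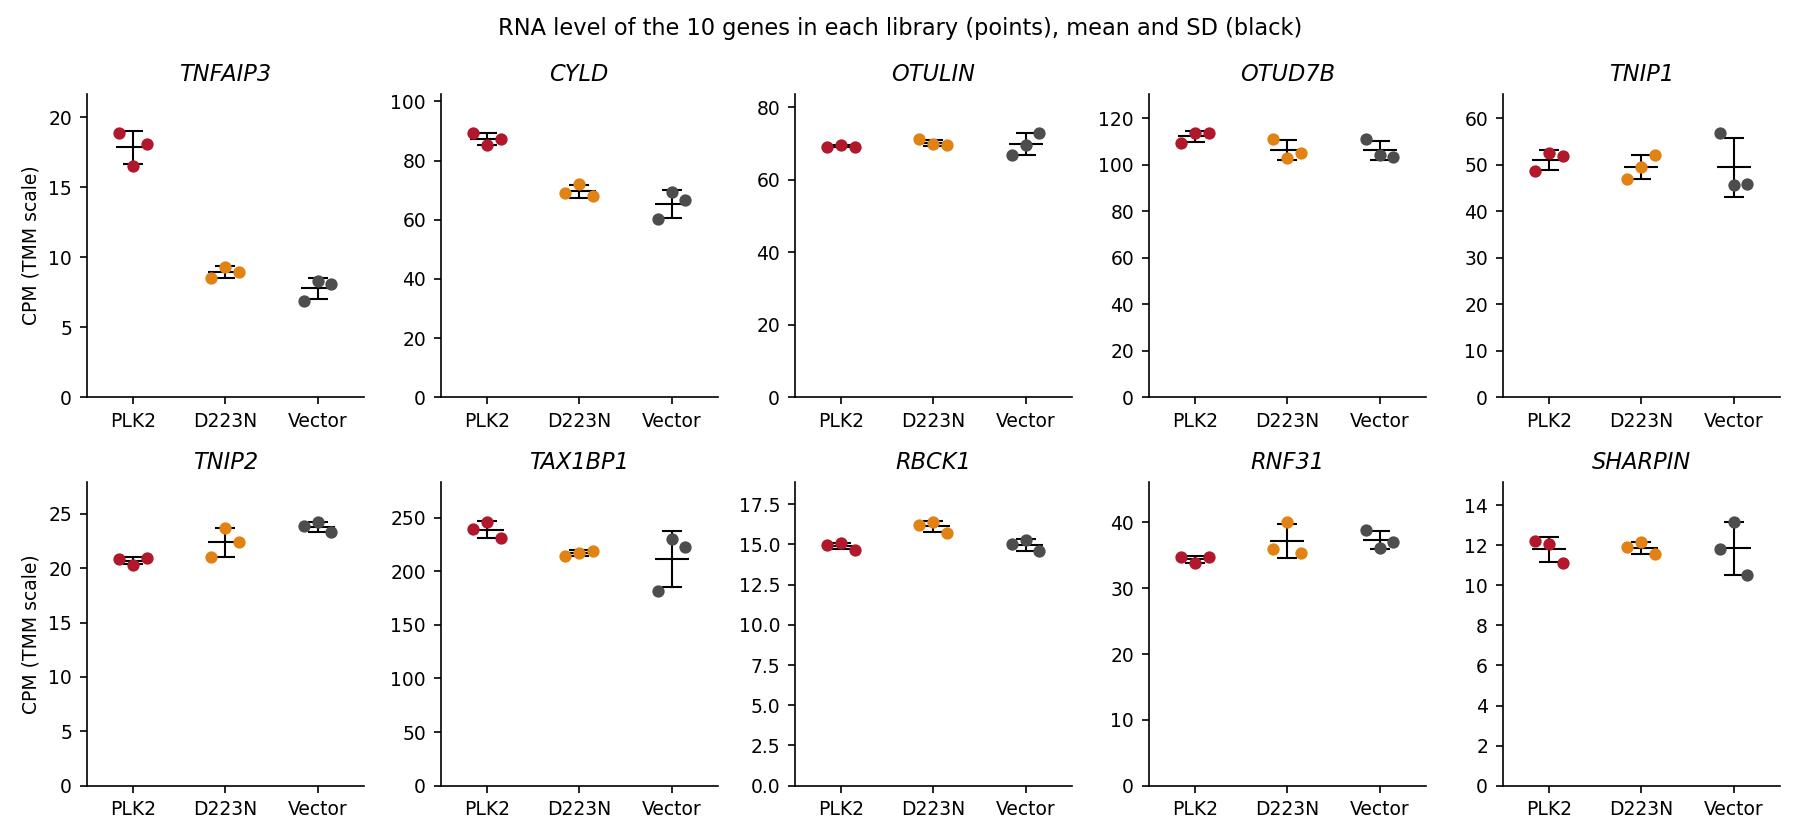
CPM on the TMM scale for each member, with axes from 0; coloured points are the 3 libraries of PLK2, PLK2(D223N) and Vector, and black marks give the mean and SD. TNFAIP3 and CYLD stand higher in all 3 PLK2 libraries than in the other 6, and the SHARPIN, OTULIN and TNIP1 libraries overlap across Vector and PLK2.

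Among the adaptors of A20, TNIP2 and TAX1BP1 did not overlap between PLK2 and Vector libraries, in opposite directions, but neither passed the adjusted test. TNIP2 (chromosome 4, 2741648 to 2756376, minus strand) encodes ABIN-2, which binds A20 and the kinase TPL2's complex. It was at 20.8, 20.3 and 20.9 CPM in PLK2, 21.1, 23.7 and 22.4 CPM in PLK2(D223N) and 23.8, 24.3 and 23.4 CPM in Vector libraries. The PLK2 libraries were the 3 lowest, and the log2 fold change against Vector was -0.20 (95% interval -0.35 to -0.06, unadjusted p = 0.00997, adjusted p = 0.191 by edgeR). TAX1BP1 (chromosome 7, 27739331 to 27844564, plus strand) was at 240, 246 and 231 CPM with PLK2, 214, 217 and 219 CPM with PLK2(D223N) and 182, 230 and 222 CPM with Vector. The lowest PLK2 library lay barely above the highest Vector library, and Vector replicate 1 lay well below the rest. Its log2 fold change against Vector was 0.18 (95% interval 0.02 to 0.33, adjusted p = 0.257). With Vector replicate 2 left out it passed, at 0.24 (adjusted p = 0.0232), where 1656 of 13028 tested genes were called. Against PLK2(D223N) it was 0.14 (adjusted p = 0.865), and it passed without Vector replicate 1 (adjusted p = 0.00830) and in a fit to the 6 libraries compared (adjusted p = 0.000897). In these settings 317 of 13020 and 502 of 12810 tested genes were called. Its exons share 4.53% of their bases with JAZF1 on the opposite strand, a gene at a mean of 16.3 CPM. TNIP1 (chromosome 5, 151029945 to 151093577, minus strand) encodes ABIN-1, the main ubiquitin-binding partner of A20. It was at 48.6, 52.5 and 51.8 CPM with PLK2, 47.0, 49.6 and 52.1 CPM with PLK2(D223N) and 56.8, 45.6 and 45.9 CPM with Vector. The Vector range enclosed all PLK2 and PLK2(D223N) libraries, since Vector replicate 1 was the highest of the 9 and the other Vector libraries the lowest. The log2 fold change against Vector was 0.04 (95% interval -0.13 to 0.21).

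The subunits of the linear ubiquitin ligase lay within 0.12 of 0 on the log2 scale in all 3 comparisons. RNF31 (chromosome 14, 24146683 to 24160661, plus strand), the catalytic HOIP gene, was at 34.7, 33.8 and 34.7 CPM with PLK2, 35.9, 40.1 and 35.4 CPM with PLK2(D223N) and 38.9, 36.1 and 37.0 CPM with Vector. Its PLK2 libraries were the 3 lowest, at a log2 fold change of -0.12 against Vector (95% interval -0.26 to 0.02, adjusted p = 0.356) and -0.11 against PLK2(D223N) (adjusted p = 0.888). RBCK1 (chromosome 20, 407498 to 430966, plus strand), the HOIL-1 gene, was at 14.9, 15.1 and 14.7 CPM with PLK2, 16.2, 16.4 and 15.7 CPM with PLK2(D223N) and 15.04, 15.3 and 14.6 CPM with Vector. The PLK2(D223N) libraries were the 3 highest, but the log2 fold change against Vector of 0.11 (95% interval -0.04 to 0.26) had an adjusted p of 0.611. SHARPIN (chromosome 8) ran from 11.1 to 12.2 CPM with PLK2, from 11.6 to 12.2 CPM with PLK2(D223N) and from 10.5 to 13.2 CPM with Vector, with a log2 fold change of -0.00 for PLK2 against Vector (95% interval -0.20 to 0.20). GENCODE release 29 places 4.34% of the exon bases of RNF31 on the opposite strand of PSME2, a proteasome activator gene at a mean of 46.3 CPM. Strandedness of the counting is not given in the sources used here, so reads there cannot be told apart, and a readthrough gene shares 34.8% of the RNF31 exon bases on the same strand.

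**Figure D3:**
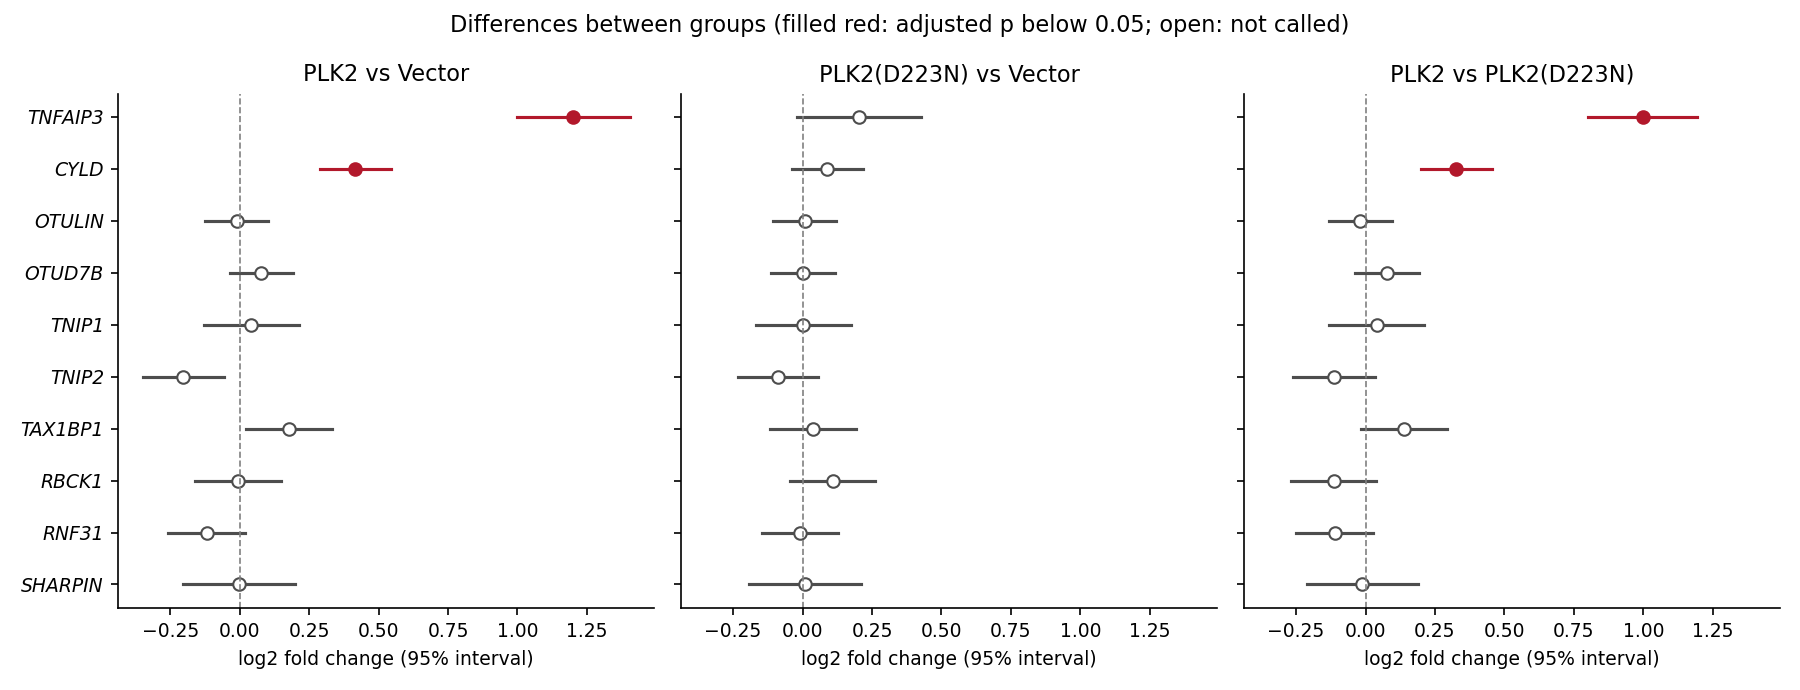
Log2 fold change (point) and 95% interval (line) of each member in the 3 comparisons; filled red points had an adjusted p below 0.05. Only the TNFAIP3 and CYLD points are filled, in PLK2 vs Vector and PLK2 vs PLK2(D223N), at 1.20 and 0.42 and at 1.00 and 0.33.

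Counting members whose libraries did not overlap, 3 were higher and 2 lower with PLK2 than with Vector, where 20.1% of all tested genes did not overlap, 10% higher and 10.1% lower. With PLK2(D223N) against Vector 2 were higher and 0 lower, beside 13.9% of all tested genes, 6.66% higher and 7.21% lower. For PLK2 against PLK2(D223N) 3 were higher and 3 lower, beside 20.5% of all tested genes, 11% higher and 9.49% lower. A log2 fold change above 0 was found for 5, 8 and 5 of the 10 members in PLK2 vs Vector, PLK2(D223N) vs Vector and PLK2 vs PLK2(D223N), and for 48.9%, 52.7% and 47.9% of all tested genes. The median log2 fold change of the 10 members was 0.02, 0.01 and 0.01 in the same comparisons, and that of all tested genes -0.00, 0.01 and -0.00.

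Ratios between members were compared within libraries. Within a library, TNIP1 had between 4.41 and 5.50 TPM for each TPM of TNFAIP3 with PLK2, between 9.33 and 10.1 with PLK2(D223N) and between 9.49 and 14.2 with Vector. CYLD had between 4.45 and 4.58 with PLK2, between 7.00 and 7.10 with PLK2(D223N) and between 7.30 and 8.59 with Vector. In both ratios the PLK2 libraries lay below all others. Both divide by TNFAIP3, which was higher in those libraries, so this restates its rise and is not a separate result. The ligase subunits had ratios whose ranges overlapped across groups. Per TPM of RNF31, RBCK1 had 1.14 to 1.303 with PLK2, 1.09 to 1.23 with PLK2(D223N) and 1.05 to 1.19 with Vector, and SHARPIN had 0.85 to 0.97, 0.80 to 0.91 and 0.74 to 1.00 in the same groups. OTULIN per TPM of RNF31 ran from 0.80 to 0.83 with PLK2, from 0.70 to 0.79 with PLK2(D223N) and from 0.69 to 0.79 with Vector, so the PLK2 libraries lay just above the rest. These ratios carry no test.

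The transgene was not matched between constructs: PLK2 RNA differed by a log2 fold change of 0.94 between PLK2 and PLK2(D223N) (SE 0.09, adjusted p = 4.99e-05), higher with PLK2. The amount of PLK2 RNA and the D223N change therefore cannot be told apart in PLK2 vs PLK2(D223N), for TNFAIP3 and CYLD as for any gene. In PLK2(D223N) vs Vector, PLK2 RNA was at 11.83 on the log2 scale, TNFAIP3 at 0.20 and CYLD at 0.09. Whether the members follow the amount of PLK2 RNA was not tested.

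Of 3 lists of genes that work with the members or resemble them, none held a called gene in the main edgeR fit to all 9 libraries. Of 14 genes of the TNF receptor 1 complex 13 were tested and none was called in any comparison by edgeR, DESeq2 or limma on TPM (0 each). At an unadjusted p below 0.05 stood 1 higher and 2 lower in PLK2 vs Vector, beside 9.56% and 6.81% of all tested genes. In PLK2(D223N) vs Vector 1 was lower, beside 3.3% of all tested genes. In PLK2 vs PLK2(D223N) there were 0, beside 6.04% in either direction. TAB2, a ubiquitin-binding adaptor of the kinase TAK1, was at 0.22 in PLK2 vs Vector (SE 0.07, adjusted p = 0.165). RIPK1, a kinase that carries linear chains, was at -0.18 in PLK2 vs Vector (SE 0.06, adjusted p = 0.208), and TAB1, a TAK1 activator, at -0.22 (SE 0.08, adjusted p = 0.226). Without Vector replicate 2, 3 genes of the list passed there: TAB2 (0.29, adjusted p = 0.00817), TAB1 (-0.30, adjusted p = 0.0142) and CHUK, the kinase IKKα (0.24, adjusted p = 0.0205). In that setting 1656 of 13028 tested genes were called. TAB2 also passed in PLK2 vs PLK2(D223N) when fitted to the 6 libraries compared (adjusted p = 0.0201), where 502 of 12810 tested genes were called. BIRC3, an NF-kB inducible ubiquitin ligase of that complex, had at most 6 counts in any library and was not tested.

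Of 14 partners and conjugating enzymes of the members 13 were tested and none was called by edgeR, DESeq2 or limma on TPM (0 each). At an unadjusted p below 0.05 there were 1 higher and 1 lower in PLK2 vs Vector, beside 9.56% and 6.81% of all tested genes. There were 0 in PLK2(D223N) vs Vector, beside 8.53% in either direction, and 2 higher in PLK2 vs PLK2(D223N), beside 2.98%. OPTN, a receptor for linear chains related to the IκB kinase regulator NEMO, was at 32.9, 31.9 and 33.0 CPM with PLK2, 28.5, 25.7 and 28.1 CPM with PLK2(D223N) and 27.7, 28.0 and 27.8 CPM with Vector. All 3 PLK2 libraries lay above the other 6, with a log2 fold change of 0.23 against Vector (SE 0.06, adjusted p = 0.120) and 0.25 against PLK2(D223N) (SE 0.06, adjusted p = 0.251). OPTN passed without Vector replicate 2 in PLK2 vs Vector (adjusted p = 0.0419) and, in PLK2 vs PLK2(D223N), without Vector replicate 1 (0.0105), in a fit to the 6 libraries (0.00581) and after removal of trends in GC content and length (0.0466). In those settings, in that order, 1656 of 13028, 317 of 13020, 502 of 12810 and 93 of 12841 tested genes were called. UBE2D3, a ubiquitin-conjugating enzyme, passed beside OPTN in PLK2 vs PLK2(D223N) without Vector replicate 1 (0.11, adjusted p = 0.0364) and in the fit to the 6 libraries (0.11, adjusted p = 0.00870), so the list held 2 called genes in each. SPATA2, which bridges CYLD to HOIP, was at -0.26 against Vector (SE 0.11, adjusted p = 0.260). With Vector replicate 2 left out it passed, at -0.35 (adjusted p = 0.0344), and with OPTN made 2 called genes. UBE2V1, a cofactor in chain synthesis, was at -0.09 (SE 0.06, adjusted p = 0.383). TNIP3, the third gene of the TNIP family, had at most 5 counts in any library and was not tested.

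Other deubiquitinases of the OTU family, to which A20, OTULIN and OTUD7B belong, were not called either. Of 14 genes 13 were in the table and tested, and edgeR, DESeq2 and limma on TPM called 0 in each comparison. At an unadjusted p below 0.05 there were 2, 2 and 1 higher and 0 lower in PLK2 vs Vector, PLK2(D223N) vs Vector and PLK2 vs PLK2(D223N). Of all tested genes 9.56%, 5.22% and 2.98% were higher at that threshold. OTUD6B was at 0.18 (SE 0.07, adjusted p = 0.252), OTUD4 at 0.19 (SE 0.09, adjusted p = 0.302) and ALG13 at 0.12 (SE 0.06, adjusted p = 0.328) in PLK2 vs Vector. Without Vector replicate 2, OTUD6B (0.27, adjusted p = 0.0131) and OTUD4 (0.27, adjusted p = 0.0295) passed, where 1656 of 13028 tested genes were called. The family had a median of 0.09 in PLK2 vs Vector, 0.08 in PLK2(D223N) vs Vector and 0.01 in PLK2 vs PLK2(D223N).

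Of 15 listed genes that NF-kB induces, a class to which TNFAIP3 itself belongs, 11 were tested. This list, like the members, was chosen with earlier results of these data known. In PLK2 vs Vector 3 were called higher and none lower, beside 0.48% and 0.031% of all tested genes. None was called in PLK2(D223N) vs Vector (0 at an unadjusted p below 0.05, and 0 by DESeq2 or limma on TPM), beside 0.0232% of all tested genes by edgeR. In PLK2 vs PLK2(D223N) 4 were called higher, beside 0.155%. The 3 of PLK2 vs Vector became 5 by DESeq2, 5 after removal of trends in GC content and length, 5 without Vector replicate 1 and 6 without Vector replicate 2. Over all tested genes 143, 394, 363 and 1656 were called in these settings, in that order. The list genes added in them were NFKBIA and REL, an NF-kB subunit, and in the last also SOD2, a mitochondrial superoxide dismutase. The 3 became 4 without a filter or with a replicate block (NFKBIA added), beside 136 and 76 of all tested genes. By limma on TPM, which did not test TNFRSF9, the 3 became 2 (NFKB2 and RELB), beside 19. Without PLK2 replicate 1, 2 or 3 they became 2 (RELB and TNFRSF9), beside 22, 13 and 20. The 4 of PLK2 vs PLK2(D223N) became 1 by limma on TPM (RELB), again with TNFRSF9 not tested, beside 11 of all tested genes. Without PLK2(D223N) replicate 2 or 3 or any 1 PLK2 library they became 2 (RELB and TNFRSF9). Without Vector replicate 3 or PLK2(D223N) replicate 1 they became 3, with NFKBIA lost. After trend removal they became 5 (REL added). In the fit to 6 libraries or without Vector replicate 1 they became 6 (REL and SOD2 added). Over all tested genes 93, 502 and 317 were called in these last 3 settings, in that order. Median log2 fold changes of the 11 were 0.37, -0.02 and 0.22 in the 3 comparisons. TNFRSF9, a costimulatory receptor, had 50, 55 and 43 counts in PLK2, 2, 3 and 3 in PLK2(D223N) and 3, 1 and 3 in Vector libraries, so every PLK2 library was far above the rest. It passed the filter on low counts only through the PLK2 libraries, where it was high. Its calls, counted above in both comparisons with PLK2, are therefore not used as support. RELB, a subunit of the non-canonical pathway, was at 5.95, 6.03 and 5.33 CPM with PLK2, 1.304, 1.54 and 1.29 CPM with PLK2(D223N) and 1.43, 1.87 and 1.72 CPM with Vector. Its log2 fold change against PLK2(D223N) was 2.06 (SE 0.16, adjusted p = 1.14e-05). NFKB2, the precursor of the p52 subunit, was at 16.6, 16.03 and 15.99 CPM with PLK2, 11.4, 10.99 and 10.3 CPM with PLK2(D223N) and 12.1, 10.1 and 10.9 CPM with Vector. All 3 PLK2 libraries lay above the other 6, with a log2 fold change of 0.55 against Vector (SE 0.09, adjusted p = 0.00789) and 0.57 against PLK2(D223N) (SE 0.09, adjusted p = 0.00840). NFKBIA, the inhibitor IκBα, was at 23.7, 21.9 and 22.3 CPM with PLK2, 16.5, 17.1 and 15.4 CPM with PLK2(D223N) and 18.9, 14.98 and 17.3 CPM with Vector. It was called in PLK2 vs PLK2(D223N) (0.47, SE 0.09, adjusted p = 0.0388) and just missed in PLK2 vs Vector (0.40, adjusted p = 0.0511). The calls of NFKB2 and NFKBIA changed with single libraries. Against Vector, NFKB2 lost its call without PLK2 replicate 1, 2 or 3 (0.0666, 0.0660 and 0.0518), and 6 of 18 alternatives let NFKBIA pass, including the removal of Vector replicate 1 (0.000236) or 2 (0.0197). Against PLK2(D223N), NFKBIA passed in 10 of 18 and lost its call without Vector replicate 3 (0.0763), any 1 PLK2(D223N) library (0.206, 0.161 and 0.343) or any 1 PLK2 library (0.309, 0.198 and 0.212). NFKB2 lost it there without PLK2(D223N) replicate 2 or 3 (0.0646 and 0.107) or PLK2 replicate 1, 2 or 3 (0.0773, 0.0615 and 0.0521), and both lost it by limma on TPM (0.0639 for NFKB2 and 0.104 for NFKBIA). The highest count in a library was 8 for ICAM1, 5 for CXCL8 and 1 for CCL2, so these were not tested. In RefSeq windows, 7 of the 11 genes of this list that had one held a kappa B match, against 7.09% of all genes. TNFRSF9, NFKB2 and NFKBIA were among the 7, and RELB had no window. The list was picked as genes that NF-kB induces, so a higher share of matches follows from that choice and adds no support.

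**Figure D4:**
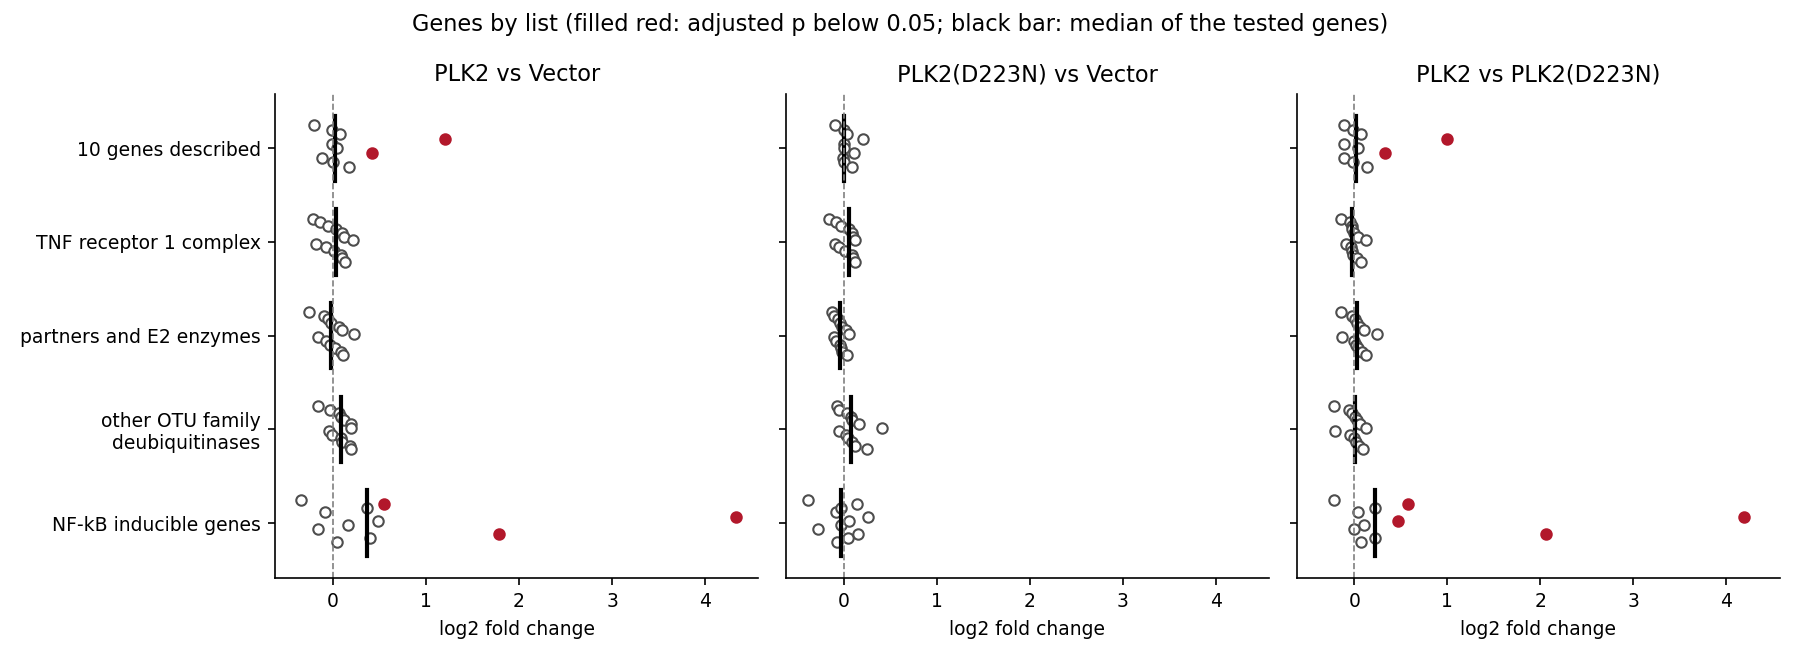
Log2 fold change of each tested gene by list in the 3 comparisons; filled red points had an adjusted p below 0.05 and black bars are medians. Called points lie only among the 10 genes described and the NF-kB inducible genes, and in no list in PLK2(D223N) vs Vector.

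The genes whose pattern over the 9 libraries was nearest to TNFAIP3 were ranked by root mean square distance between log2 CPM values centred on each gene's mean, among 12286 other genes averaging 1 CPM or more. DHRS2, a short-chain dehydrogenase, was nearest at 0.14, where TNFAIP3 itself spread 0.53 around its mean. ANKRD1, a cardiac ankyrin repeat gene that YAP also induces, CREBRF, a regulator of CREB3, MRC1, a mannose receptor, and GAS2L3, a cytoskeletal linker, followed at 0.16, 0.20, 0.22 and 0.24. DHRS2 averaged 8.11 CPM in PLK2, 3.95 CPM in PLK2(D223N) and 3.73 CPM in Vector libraries. ANKRD1 averaged 40.9, 24.1 and 19.6 CPM in the same groups. For CYLD, which spread 0.19, the nearest was ZBTB21, a zinc finger gene, at 0.04, with means of 104, 84.1 and 78.9 CPM. DEPDC1, KATNAL2, YY2 and CHMP1B followed at 0.05 to 0.06. None of these 10 genes belongs to the lists above. The distance describes 9 libraries that share 3 groups, and a small distance is easier to reach for genes that vary little.

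**Figure D5:**
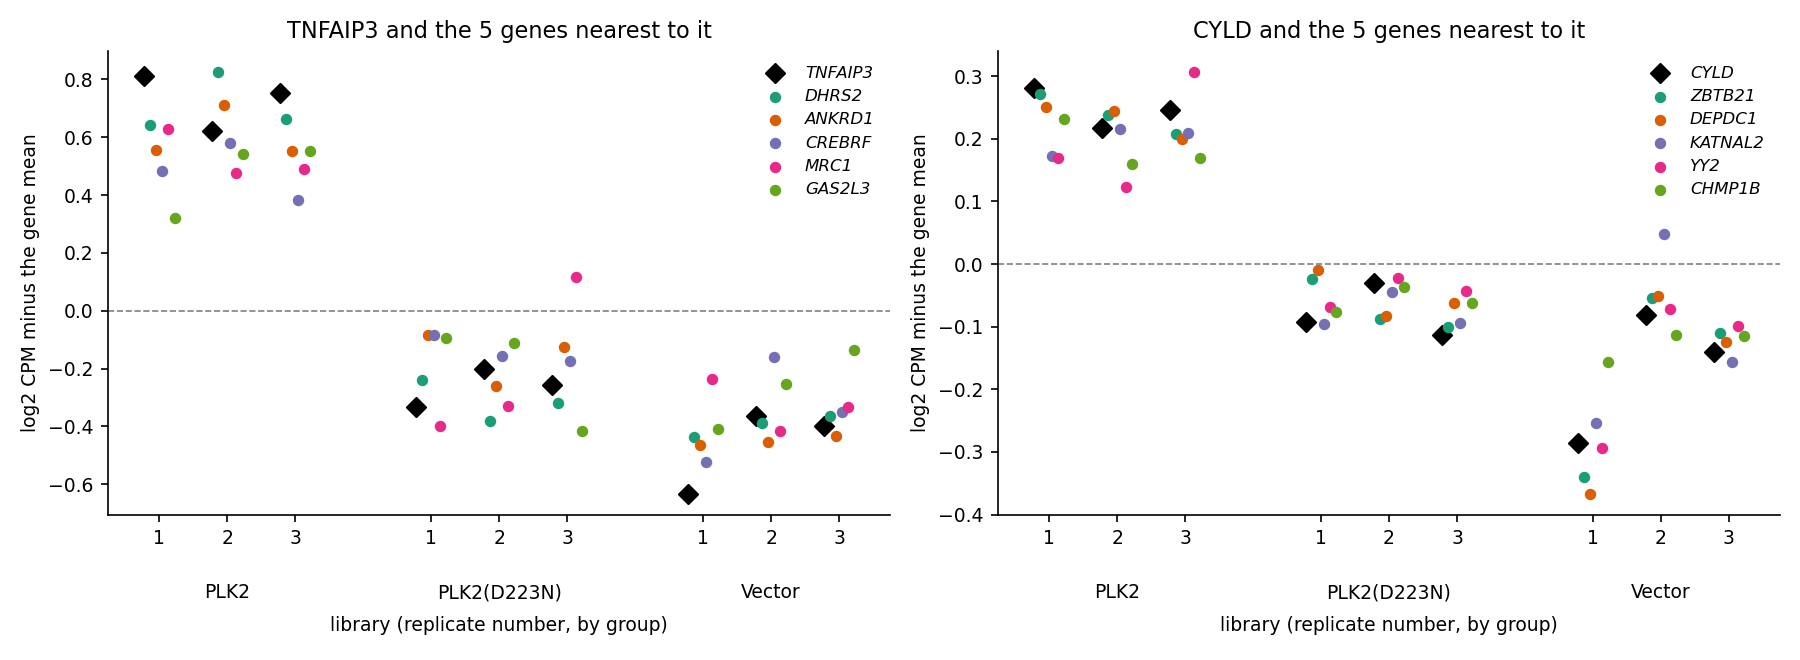
Log2 CPM minus the gene's mean in each of the 9 libraries, for TNFAIP3 (left, diamonds) and CYLD (right, diamonds) and the 5 genes nearest to each (circles). Values of all genes are positive in PLK2 libraries and, but for MRC1 in 1 PLK2(D223N) library and KATNAL2 in 1 Vector library, negative in the others. The nearest genes were picked over these same 9 libraries, so their shared signs follow from that choice.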

How the data were processed

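RNA-seq of 9 HEK293T libraries was analysed from a deposited table. Oligo(dT) beads selected the mRNA, per the labels' protocols. By the submitters' processing notes, Bowtie2, RSEM 1.3.1, DESeq2 1.4.5 and build GRCh38.p13 were used; what each did is not given in the sources used here, nor are gene annotation and strandedness. The authors deposited estimated counts, not all whole, and TPM, which divides by gene length; 18 further per-library columns were not used. A Vector title has transposed letters and was matched to its column by its number.

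Estimated counts were rounded, filtered (filterByExpr, 12924 of 17083 genes), scaled by TMM and fitted with edgeR 4.0.16 (glmQLFit and glmQLFTest, robust; R 4.3.3) over all 9 libraries with group as the only term. P-values are two-sided, Benjamini-Hochberg adjusted over all tested genes and called below 0.05. The SE is the log2 fold change over the square root of F, and intervals use the t distribution. The procedure was tested on simulated data. Levels are CPM on the TMM scale; marker sums are without TMM.

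The members and the gene lists were chosen with earlier results of these data known. Named are all members, PLK2, called genes of each list and its 3 genes with the smallest p in PLK2 vs Vector, and the 5 genes most like TNFAIP3 and CYLD; untested list genes, marker genes, CHUK, UBE2D3, REL and SOD2 were added after values were seen. Alternatives were DESeq2 1.42.0 size factors and Wald test, 2 other filters (at least 1 count in total, or 10 counts in every library of a group with a mean of 1 CPM), a replicate block, 6-library fits, PLK2 removed before scaling, GC content and length trends removed (loess, span 0.3, GENCODE release 29, 12841 genes), limma 3.58.1 on log2(TPM + 1) at a mean of at least 1 TPM, and each library left out. The pseudocount understates changes of low genes such as TNFAIP3 there. Labels and headers give no batch.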

Additional observations from a re-analysis of the deposited data

How the results depend on the processing

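Over 18 alternatives, TNFAIP3 kept its direction and call in PLK2 vs Vector and in PLK2 vs PLK2(D223N), and no member was called in PLK2(D223N) vs Vector. Of the members and the list genes named by rule, no gene changed sign in a comparison in which it was called, while uncalled values near 0 did: in PLK2 vs Vector OTULIN, TNIP1, RBCK1 and SHARPIN had the same sign in 17, 16, 15 and 13 of 18. The number of members called, 2 in PLK2 vs Vector, was 1 by limma on log2(TPM + 1) and ran from 2 to 3 with a library left out. In PLK2 vs PLK2(D223N), also 2, it was 1 with a replicate block, 1 by limma on TPM, 3 in the fit to 6 libraries (CYLD, TNFAIP3 and TAX1BP1), and ran from 1 to 3 with a library left out. Counts over all genes moved more. In PLK2 vs Vector 66 genes (62 higher, 4 lower) became 143 by the DESeq2 Wald test, 136 without a filter, 23 in the fit to 6 libraries, 394 (259 higher, 135 lower) with GC content and length trends removed, 19 by limma on TPM and from 13 to 1656 with a library left out. In PLK2(D223N) vs Vector 3 became 9 by DESeq2, 5 without a filter, 8 with those trends removed, and 2 to 347 with a library left out. In PLK2 vs PLK2(D223N) 21 (20 higher, 1 lower) became 37 by DESeq2, 35 without a filter, 502 (374 higher, 128 lower) in the fit to 6 libraries, 93 with those trends removed, 11 by limma on TPM (8 higher, 3 lower), and 9 to 317 with a library left out. The cause was not tested. Deviations of same-numbered libraries correlated between -0.01 and 0.07 across genes in PLK2 vs Vector, -0.11 and 0.02 in PLK2(D223N) vs Vector, and -0.00 and 0.14 in PLK2 vs PLK2(D223N). In the last, 2 of 3 PLK2 libraries correlated best with the PLK2(D223N) library of their own number, against 1 of 3 libraries in each other comparison. With 3 libraries a group, these values do not settle whether the replicate numbers pair the libraries. With a replicate block the counts were 76, 4 and 20, and CYLD was at adjusted p = 0.0624 in PLK2 vs PLK2(D223N). TNFAIP3 and SHARPIN, with 116 to 298 and 171 to 199 counts per library, are the members at which counting error weighs most.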
